A study of Mus musculus with 36 samples.

Results

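The comparison described here is that of Rescue keratinocytes with PKP4-KO keratinocytes after 24 h in high calcium medium (HCM), made up of 3 Rescue and 3 PKP4-KO libraries of the 36 RNA sequencing libraries of the study. The members were chosen by their labels: the genotype, the time of 24 h and the medium. PKP4-KO cells were primary mouse keratinocytes isolated from newborn pups that lack exon 9 of Pkp4, with the mouse line backcrossed to C57BL/6J. Rescue cells were PKP4-KO keratinocytes that had received GFP-PKP4, the human PKP4 protein with EGFP at its N-terminus, from a lentiviral vector and had been selected with puromycin as a stable line. By their labels both groups carry the Pkp4 deletion and differ by the transgene, its vector and the selection, and their libraries also differed in Y-linked RNAs. All cells were grown on collagen I, and HCM was low calcium medium (LCM) to which CaCl2 had been added. WT keratinocytes with intact Pkp4, kept in the same way, are given beside the 2 groups where their level helps to place a gene.

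PKP4, also known as p0071, is an armadillo repeat protein of the p120-catenin and plakophilin family that sits at adherens junctions. Raising calcium makes cultured keratinocytes bind each other through cadherins, form adherens junctions, desmosomes and tight junctions, and begin to stratify. Stratified cells leave the cell cycle and make the proteins of the cornified envelope, the crosslinked shell of the outer epidermis.

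The study's methods name the deleted piece as exon 9 of Pkp4, without a transcript, and no reads over exons were examined here. Counted in the transcript Pkp4-210 of the annotation, exon 9 lies on the forward strand at chr2:59142038-59142257 of GRCm39, is 220 bp long, and its length leaves a remainder of 1 after division by 3. It is shown because both groups are labelled as carrying this deletion. The deposited Pkp4 counts cover the whole gene, so that RNA without this piece still counts towards the level:
Pkp4 exon 9: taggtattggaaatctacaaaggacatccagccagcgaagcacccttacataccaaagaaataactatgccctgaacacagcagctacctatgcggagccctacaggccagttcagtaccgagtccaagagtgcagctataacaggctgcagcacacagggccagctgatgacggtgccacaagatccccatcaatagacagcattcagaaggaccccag

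Endogenous Pkp4 was low in both groups. Its level, in CPM (counts scaled to a common library size with TMM factors), was 6.52, 7.56 and 7.16 CPM in the 3 Rescue libraries, 9.65, 8.24 and 8.42 CPM in the 3 PKP4-KO libraries and 48.9, 41.6 and 41.5 CPM in WT. Every Rescue library lay below every PKP4-KO library, by a log2 fold change of -0.31 with a standard error (SE) of 0.16, and the difference did not pass the test (adjusted p = 0.136). GFP-PKP4 RNA stood at 197, 219 and 168 CPM in Rescue, 1.68, 1.09 and 8.27 CPM in PKP4-KO and 2.47, 8.12 and 2.45 CPM in WT. All Rescue libraries exceeded all others, with a log2 fold change of 5.79 (adjusted p = 7.3e-06, SE 0.92) against PKP4-KO. In an exact two-sided permutation test on log2(CPM + 0.5), both genes gave p = 0.1, the smallest p that 3 against 3 libraries allow. Whether the reads listed on GFP-PKP4 in PKP4-KO and WT came from Pkp4 was not tested.

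The labels describe the Rescue cells as made from the PKP4-KO cells, and RNAs of the sex chromosomes differed between the libraries of these lines. RNAs of the 4 Y-linked genes Eif2s3y, Kdm5d, Ddx3y and Uty, summed, had 37 to 238 counts in each of the 12 Rescue libraries of the study, 0 to 3 in each of the 12 PKP4-KO libraries and 0 to 12 in WT. At 24 h HCM, Eif2s3y, a translation initiation factor subunit, stood at 5.66, 4.39 and 4.72 CPM in Rescue, at 0 in all 3 PKP4-KO libraries and at 0, 0 and 0.051 CPM in WT. Against 3 counts per library, the smallest level taken as measurable, Eif2s3y was at least 30.3-fold higher in Rescue than in PKP4-KO. Of 5 tested sex-linked RNAs, 4 rose, the 4 Y-linked ones, and the remaining one, Xist, did not pass the test. Xist, the RNA that coats the inactive X chromosome, was at 0.115, 0.423 and 1.54 CPM in Rescue, 0.373, 0.126 and 0.222 CPM in PKP4-KO and 71.3, 54.8 and 35.5 CPM in WT. The effect of the transgene and any other difference between these cultures cannot be told apart in any result that follows, and the label "Rescue" is used as the name of the libraries.

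The 6 libraries held 13794211 to 20732407 counts on genes, and 3 counts in each library corresponded on average to 0.16 CPM in Rescue and 0.162 CPM in PKP4-KO, a floor that covers counting error only. All 10 keratinocyte marker genes were tested, 3 rose and 3 fell, and their summed levels were 39959.7 to 45518 CPM in Rescue, 44419.9 to 53509.7 CPM in PKP4-KO and 43779 to 51728 CPM in WT. None of the 37 mitochondrial genes had a count in these libraries. Between libraries of a group, chi-square per gene was 134 and 182 for PKP4-KO replicate 3 with the other two, 38.2 between PKP4-KO replicates 1 and 2, and 17.1 to 31.4 in Rescue, so that PKP4-KO replicate 3 stood furthest apart among the 6. The labels do not say whether libraries with the same genotype came from separate pups or lines, so p-values measure the spread between these libraries, which may be technical. Fewer cells of a kind and less RNA per cell cannot be told apart in such bulk samples.

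**Figure D1:**
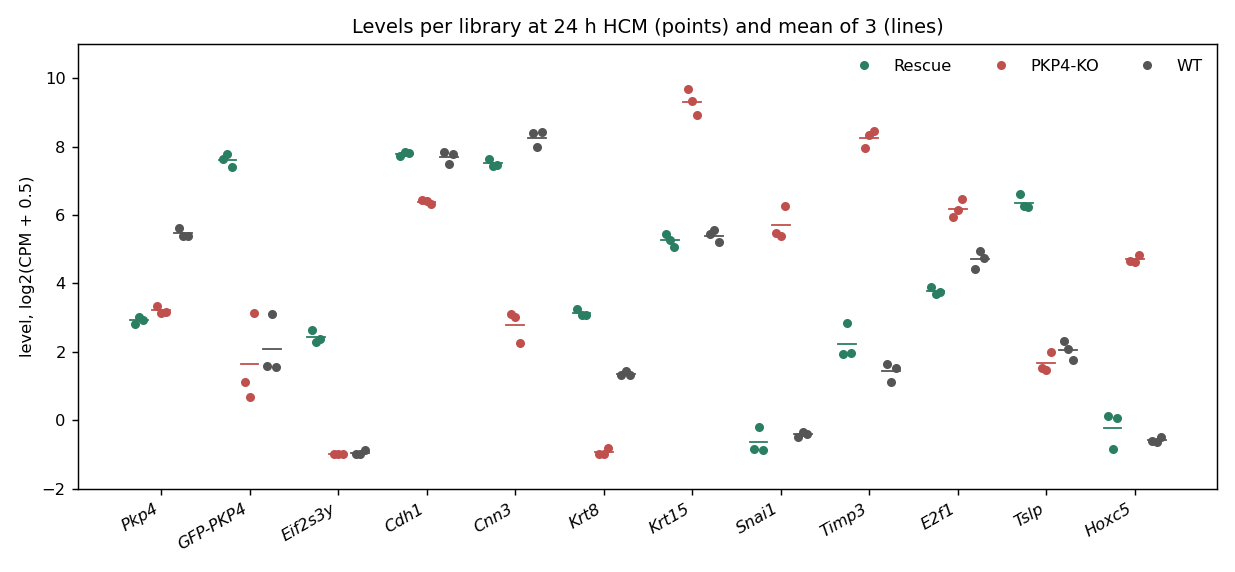
Level of 12 genes in each library at 24 h HCM, as log2(CPM + 0.5) on the vertical axis; each point is 1 of the 3 Rescue, 3 PKP4-KO or 3 WT libraries and each line is the mean of the 3 points. Rescue and PKP4-KO do not overlap for any of the 12 genes, most of which were named for the size of their change, and 51.2% of all tested genes do not overlap. Pkp4 is low in both, and Krt15, Snai1, Timp3, E2f1 and Hoxc5 are the genes besides Pkp4 that are lower in Rescue.

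A large part of the transcriptome differed between Rescue and PKP4-KO at 24 h HCM. With edgeR's quasi-likelihood test and Benjamini-Hochberg adjustment over 15114 tested genes, 6160 genes were called: 3285 were higher (21.7%) and 2875 lower (19.0%) in Rescue. Of these, 2170 rose and 1392 fell by at least 1 on the log2 scale. The 3 Rescue and the 3 PKP4-KO libraries did not overlap for 51.2% of the tested genes, and the median log2 fold change of all tested genes was -0.02. Without PKP4-KO replicate 3, 2804 genes were higher and 2652 lower. The shares over all tested genes are the background for every gene list that follows.

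The largest differences were between presence and near absence. Snai1, a transcription factor that represses E-cadherin in epithelial-mesenchymal transition, stood at 0.0577, 0.37 and 0.0497 CPM in Rescue and at 43.8, 41.6 and 76.9 CPM in PKP4-KO. WT was as low as Rescue, at 0.206, 0.287 and 0.255 CPM, and the log2 fold change of Rescue against PKP4-KO was -8.34 (adjusted p = 1.46e-10, SE 0.69). Timp3, a secreted inhibitor of matrix metalloproteinases, had 3.29, 6.66 and 3.38 CPM in Rescue and 249, 326 and 352 CPM in PKP4-KO, a 69.4-fold difference. The WT libraries, at 2.63, 1.65 and 2.4 CPM, were lower still.

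The other genes at the head of the list of falls were Il23r, a receptor of interleukin 23, Spink6, a serine protease inhibitor, the transcription factors Foxd1, Eya2 and Cdx2, and Pi15, Plekhh2 and Ces1g. Il23r had no count in any Rescue library and 3.73, 3.56 and 3.32 CPM in PKP4-KO, so that it was at least 22.1-fold lower in Rescue. By the same floor, Pi15 was at least 42.5-fold, Plekhh2 at least 21.9-fold, Spink6 at least 17.6-fold and Eya2 at least 14.4-fold lower. Without PKP4-KO replicate 3, the bound of Spink6 was 10.3-fold. Ces1g, a carboxylesterase, fell 82-fold from PKP4-KO levels of 21.5, 31 and 40.6 CPM, and Foxd1 fell 108-fold from 15.8, 15.5 and 11.6 CPM. Among these, Spink6 differed from the rest in that WT, at 0.927, 2.37 and 1.33 CPM, overlapped the 1.68, 1.63 and 5.17 CPM of PKP4-KO.

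Among the genes that headed the list of rises, Krt20 and Krt8, keratins of simple epithelia, Ccr1, a chemokine receptor, and Cgnl1, the tight junction protein paracingulin, had at most 1 count in any PKP4-KO library. Krt8 was at 9.06, 7.93 and 7.85 CPM in Rescue and 2.01, 2.23 and 1.99 CPM in WT, at least 51-fold above PKP4-KO. Shroom1, an actin-binding protein of the Shroom family, was at 11.4, 14.1 and 8.75 CPM in Rescue, 0.0466, 0.0418 and 0.0739 CPM in PKP4-KO and 5.2, 5.68 and 7.29 CPM in WT, at least 70.3-fold higher in Rescue. Hpgds, the haematopoietic prostaglandin D synthase, was at least 78.2-fold higher, with 12.9, 14 and 11.2 CPM in Rescue and 1.8, 0.575 and 0.866 CPM in WT. Rescue was above WT for Krt8, Shroom1 and Hpgds, and also for Mtus2, a microtubule-associated protein, and Cd164l2. The level of Mtus2 was 4.04, 4.81 and 3.68 CPM in Rescue against 0.206, 0 and 0 CPM in WT. Gpat3, an enzyme of triglyceride synthesis, was above WT too, at 4.5, 3.44 and 2.43 CPM in Rescue and 1.55, 1.58 and 1.38 CPM in WT.

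**Figure D2:**
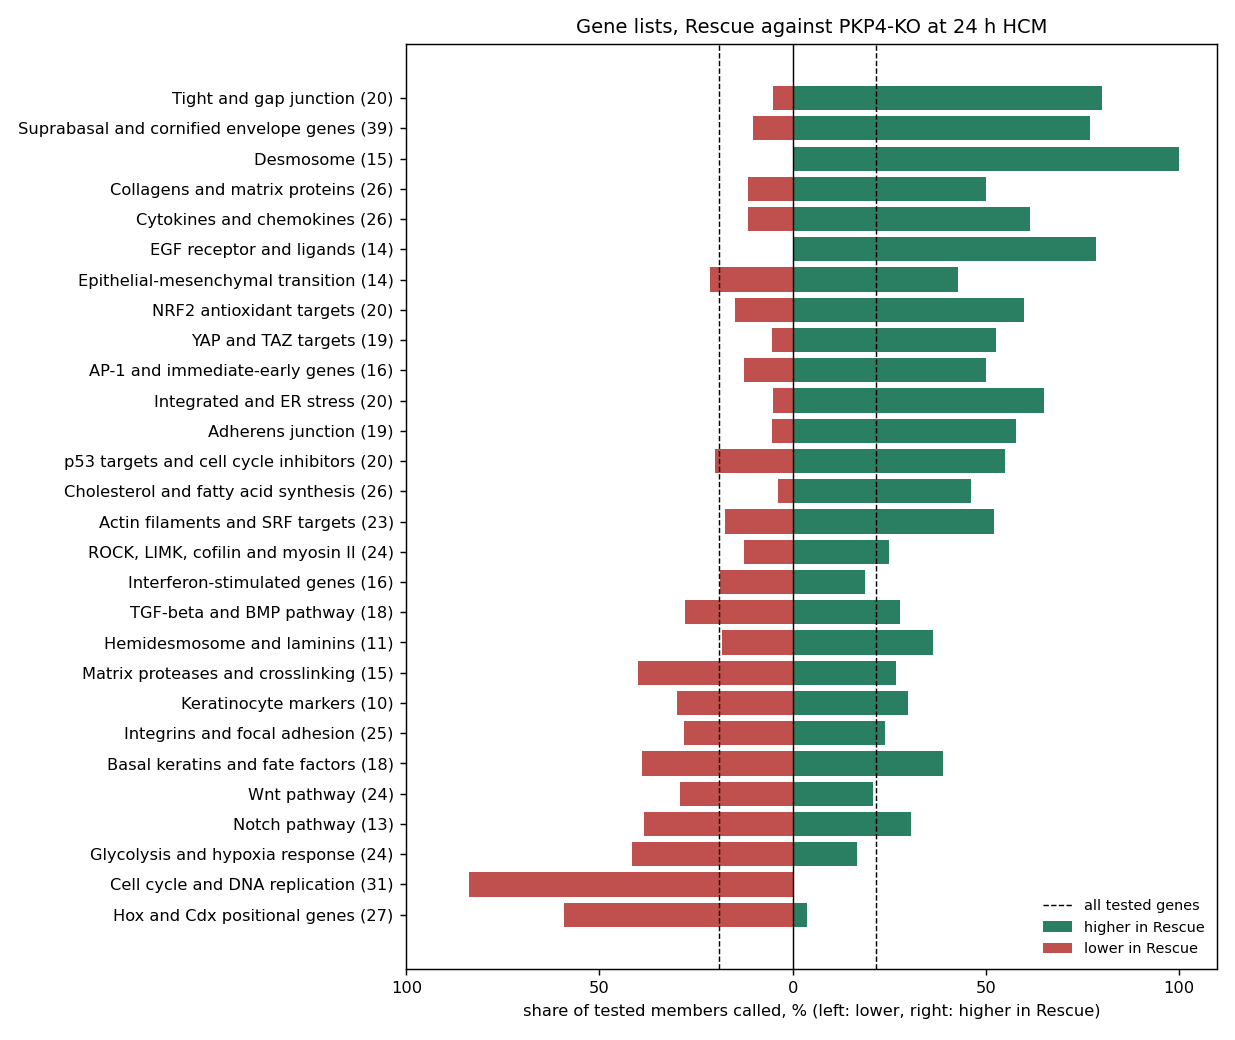
Share of the tested members of each gene list that was called at 24 h HCM, with the number tested in parentheses; bars to the right are members higher in Rescue and bars to the left members lower in Rescue, ordered by the list's median log2 fold change, for the lists reported with at least 10 tested members. Dashed lines mark all tested genes, 21.7% higher and 19.0% lower; desmosome genes reach 100% higher, and cell cycle genes show no bar on the side of higher genes.

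The genes of cell-cell junctions were higher in Rescue. In the p120-catenin and plakophilin family, 4 of 6 tested members rose and none fell, with a median log2 fold change of 0.79 against -0.02 over all tested genes. Pkp1, a desmosomal plakophilin, was at 1837, 1876 and 1688 CPM in Rescue, 1071, 998 and 1029.8 CPM in PKP4-KO and 1935, 1793 and 1709 CPM in WT. Its log2 fold change was 0.80 (adjusted p = 1.74e-06, SE 0.12), and its Rescue libraries overlapped WT. Arvcf, another catenin of this family, stood at 23.1, 20.6 and 21.1 CPM in Rescue, above both PKP4-KO (8.3, 7.28 and 5.32 CPM) and WT (7.16, 7.98 and 8.97 CPM). Pkp2 rose by 2.19 on the log2 scale at a low level of 1.74 ± 0.0485 CPM (SD, n = 3).

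Of 22 adherens junction genes, 19 were tested, 11 rose and 1, Cdh13, fell, with a median log2 fold change of 0.57. Cdh1, which encodes E-cadherin, the adhesion receptor of the adherens junction, was at 211, 228 and 224 CPM in Rescue and 85.5, 84.8 and 79.1 CPM in PKP4-KO. WT libraries, at 229, 181 and 218 CPM, overlapped Rescue, and the log2 fold change of Rescue against PKP4-KO was 1.41 (adjusted p = 2.43e-07, SE 0.18). Ctnna1, the α-catenin that links cadherins to actin, rose by 0.61 (adjusted p = 0.00121) from 177, 185 and 162 CPM to 264, 289 and 245 CPM.

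The largest changes in this list were in Nectin2, Nectin4 and Shroom3. Nectin2, an immunoglobulin-like adhesion molecule, stood at 56.5, 46.1 and 44.4 CPM in Rescue, 9.04, 8.7 and 7.9 CPM in PKP4-KO and 55.1, 54.2 and 72.2 CPM in WT, a rise of 2.52 on the log2 scale. Nectin4 rose by 2.37 and Shroom3, a scaffold of apical junctions, by 2.05. Rescue overlapped WT for Nectin2 and Nectin4 but not for Shroom3, which was at 189.7, 185 and 158 CPM in Rescue and 358, 454 and 434 CPM in WT. Cdh13, a cadherin without a transmembrane segment, fell by 0.61 on the log2 scale (adjusted p = 0.0198), a call that was lost in 4 of the alternatives, among them the fits without PKP4-KO replicate 3 and without Rescue replicate 2.

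All 15 desmosome genes rose, from 0.57 to 4.79 on the log2 scale with a median of 1.66. Their summed level was 10232 to 11755 CPM in Rescue and 4906 to 6285 CPM in PKP4-KO, and Rescue overlapped the 11519 to 15152 CPM of WT. Dsc2 and Dsg2, desmosomal cadherins that most epithelia share, rose most: Dsc2 was at 8.08, 11.8 and 6.91 CPM in Rescue, 0.513, 0.293 and 0.0739 CPM in PKP4-KO and 43, 23.7 and 26.6 CPM in WT. Dsg1b, a desmoglein of differentiated keratinocytes, rose by 2.51 and Dsg3, the desmoglein of the basal layer, by 1.62. Dsp, the plaque protein desmoplakin, rose by 1.11 (adjusted p = 0.0056, SE 0.32), with 1909, 2220.2 and 2087 CPM in Rescue and 1092, 1138 and 656 CPM in PKP4-KO. Jup, or plakoglobin, shared by desmosomes and adherens junctions, rose by 0.57 (adjusted p = 0.0202), and its call was lost when any of 4 of the 6 libraries was left out, with values from 0.49 to 0.55 in those fits: PKP4-KO replicate 1 or 2, or Rescue replicate 1 or 2.

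Tight and gap junction genes showed a median log2 fold change of 2.52, with 16 of 20 tested members higher and 1 lower. Cldn4, a claudin of tight junction strands, was at 270.4, 313 and 210.2 CPM in Rescue, 13.7, 12.1 and 12 CPM in PKP4-KO and 337, 409 and 422 CPM in WT, and its log2 fold change of 4.39 (SE 0.20) had an adjusted p of 4.56e-16. Cldn23 rose by 5.94 and Cldn1, the claudin of the epidermal barrier, by 3.64, from 6.66, 8.12 and 7.02 CPM to 94.1, 88.1 and 91 CPM. Marveld2, the tricellulin of three-cell contacts, had 12.5, 15 and 11.2 CPM in Rescue, 1.21, 1.17 and 0.295 CPM in PKP4-KO and 16.5, 13 and 18.9 CPM in WT. The scaffold gene Tjp1, or ZO-1, rose by 2.40. The member that fell was Gja1, connexin 43, by 0.49 (adjusted p = 0.00128), a call lost without TMM factors and with only the compared groups in the fit. Cldn3 and Cldn6 had no counts in these 6 libraries.

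**Figure D3:**
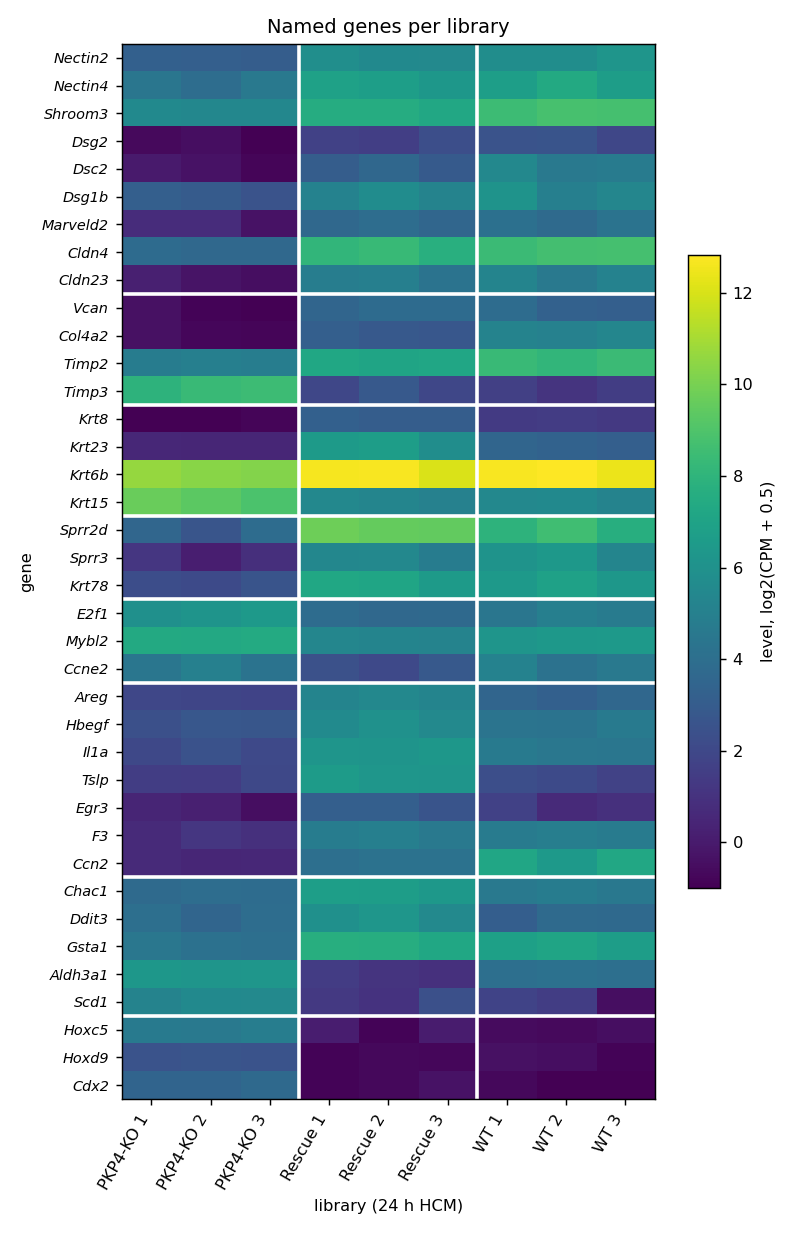
Level of 38 named genes in each library at 24 h HCM, as log2(CPM + 0.5) by colour; rows are genes, grouped by white lines into junctions, matrix, keratins, cornified envelope, cell cycle, signals, stress and positional genes, and columns are the 3 PKP4-KO, 3 Rescue and 3 WT libraries. Most rows change at the line between PKP4-KO and Rescue, Timp3, Krt15, E2f1, Mybl2, Ccne2, Aldh3a1, Scd1, Hoxc5, Hoxd9 and Cdx2 towards lower levels, and Tslp, Ddit3 and Chac1 are higher in Rescue than in WT as well.

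Rhoa, a small GTPase that acts on the actin cytoskeleton, was at 322, 295 and 277 CPM in Rescue and 366, 415 and 357 CPM in PKP4-KO, a fall of 0.35 on the log2 scale (adjusted p = 0.00795, SE 0.10). That call was lost in 5 alternatives, including library sizes without TMM factors (-0.29) and the fits without PKP4-KO replicate 2 or Rescue replicate 3. Arhgef2, the RhoA activator GEF-H1, rose by 0.89 to 36.5, 39 and 28.5 CPM from 22.1, 19.1 and 14.8 CPM, with WT at 21.7, 19.9 and 21.6 CPM. Arhgap23, a GTPase-activating protein, rose by 0.74. Net1, another RhoA activator, fell by 1.72, from 318, 394 and 510.0 CPM to 134, 128 and 109 CPM, the range of WT (124, 170.0 and 105 CPM). The atypical GTPases Rhou and Rhov rose by 1.82 and 1.89.

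Of 24 tested genes of ROCK, LIMK, cofilin and myosin II, 6 rose and 3 fell. Limk1, the kinase that inactivates cofilin, had 12.1, 14.1 and 13.7 CPM in Rescue, 6.85, 6.36 and 6.57 CPM in PKP4-KO and 28.4, 35.3 and 31.4 CPM in WT, so that Rescue lay between the other groups (log2 fold change against PKP4-KO 1.01, adjusted p = 0.000196). The ROCK genes did not pass the test: Rock1 stood at 1.20 on the log2 scale (adjusted p = 0.0737) and Rock2 at 0.64 (adjusted p = 0.22). Rock1 was called with DESeq2 and when only the compared groups were in the fit. Myh14, a non-muscle myosin II heavy chain, rose by 2.51 and Diaph2, a formin, by 1.39, while Pdxp, a cofilin phosphatase, fell by 1.26. The call of Pdxp was lost without PKP4-KO replicate 3, without Rescue replicate 3 and after subtracting the median of neighbouring genes. Mylk and Myl9, the kinase and light chain of smooth muscle myosin, had levels of at most 0.199 CPM in these 6 libraries and were not tested. The other light chain genes of the list, Myl6, Myl12a and Myl12b, were tested and not called. The paper detected MLCK and MLC2 as proteins in these cells by western blotting.

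Of 23 tested genes of actin filaments and targets of SRF, the transcription factor that answers to free actin, 12 rose and 4 fell. The median was 0.36, and the members that fell were Tagln2, Tpm2, Mrtfa and Srf itself. The calponin Cnn3 was at 198, 171 and 176 CPM in Rescue, 8.06, 7.53 and 4.28 CPM in PKP4-KO and 333, 255 and 340.4 CPM in WT. Its rise of 4.77 on the log2 scale (adjusted p = 6.28e-15, SE 0.25) was the largest in the list, and Rescue stayed below WT. Acta2, smooth muscle α-actin, rose by 2.73 but reached only 3.87, 3.75 and 4.52 CPM against 54.8, 83.6 and 67.9 CPM in WT. Cnn2, another calponin, rose by 2.67, also to a level below WT.

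In contacts with the matrix, no common direction was seen. Integrin and focal adhesion genes had 6 higher and 7 lower members of 25 tested, with a median of -0.08, near that of all genes. Itgb7, the β7 integrin chain, was at 30, 39.1 and 25.9 CPM in Rescue, 1.21, 0.544 and 0.886 CPM in PKP4-KO and 14.6, 12.3 and 15.6 CPM in WT, a rise of 5.17. Itgav, the αv chain, rose by 1.51 and Tln2, a talin that links integrins to actin, fell by 1.66. Among hemidesmosome and laminin genes, 4 of 11 rose and 2 fell, with a median of 0.02, and the rises included Lamb1 (2.43) and Lamb2 (1.22), chains of laminins of the basement membrane.

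Collagens and matrix proteins had more higher than lower members in Rescue. Of 26 tested collagens and matrix proteins, 13 rose and 3 fell, with a median log2 fold change of 1.58, or 0.86 when members with at most 3 counts in each library of a group were set to their bound against the floor. Vcan, the proteoglycan versican, was at 11, 13.5 and 13.6 CPM in Rescue, 0.28, 0.0418 and 0 CPM in PKP4-KO and 14.3, 9.34 and 8.72 CPM in WT. Col4a1 and Col4a2, the chains of basement membrane collagen IV, rose by 4.52 and 5.51, with Col4a2 at 8.72, 6.88 and 6.21 CPM in Rescue, 0.28, 0.0837 and 0.0739 CPM in PKP4-KO and 35.3, 32.9 and 40.8 CPM in WT. Rescue was thus above PKP4-KO and below WT for collagen IV and in the range of WT for versican. Some members counted as higher were near the floor: the bound was 2.96-fold for Postn and 1.49-fold for Col6a2. It was 0.69-fold for Postn without Rescue replicate 2 and 0.81-fold for Col6a2 without Rescue replicate 1.

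Fibroblast markers moved with this list, and their part in it was not tested. Of 10 fibroblast marker genes, 5 were tested and 2 rose, Col1a2 and Col3a1, both of which also stand in the matrix list. The summed level of the 10 was 1.44 to 11.8 CPM in Rescue, 0.126 to 0.606 CPM in PKP4-KO and 0.153 to 1.55 CPM in WT. Col1a2 was at 0.866, 3.6 and 0.0994 CPM in Rescue and had no count in PKP4-KO, at least 9.37-fold higher, or at least 2.97-fold without Rescue replicate 2. Neither collagen was called with DESeq2, without Rescue replicate 2 or without PKP4-KO replicate 2, and the call of Col1a2 was also lost without PKP4-KO replicate 1 or 3.

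Proteases and crosslinking enzymes of the matrix had 4 higher and 6 lower members of 15 tested. Besides Timp3, the named members were Timp2, another metalloproteinase inhibitor, which rose by 2.30 from 27.3, 31.3 and 28.7 CPM to 149, 136 and 143 CPM, and Plaur, the urokinase receptor, which rose by 3.33 to 54.6, 62 and 45.8 CPM. Plaur exceeded WT (18.9, 23.4 and 22.1 CPM), and Timp2 stayed below it (326, 273 and 345 CPM).

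Genes of stratification and the cornified envelope were higher in Rescue. Of 43 such genes, 39 were tested, 30 rose and 4 fell, with a median log2 fold change of 2.35 (2.06 with bounds). Sprr2d, a small proline-rich envelope precursor, was at 885, 765 and 718 CPM in Rescue, 11.1, 5.69 and 14.5 CPM in PKP4-KO and 245, 391 and 201 CPM in WT. Its log2 fold change was 6.25 (adjusted p = 6.36e-10, SE 0.58), and Rescue exceeded WT by 1.50 (adjusted p = 0.0195). Near copies of the Sprr2 genes share reads, so single members are uncertain, and Sprr2a1 fell by 1.65 in the same libraries.

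Other envelope proteins rose in the same way. Ivl, or involucrin, was at 98, 108 and 95.8 CPM in Rescue, 6.01, 4.89 and 3.03 CPM in PKP4-KO and 56.8, 56 and 61.5 CPM in WT. Lor, or loricrin, the main envelope protein, rose by 3.97 to 45.8, 55.3 and 34.5 CPM, and Tgm1, the transglutaminase that crosslinks the envelope, by 4.20. Asprv1, a protease that processes filaggrin, rose by 4.32, and Sprr3 and Krt78 by 4.93 and 4.82. In contrast, Krt1, the early suprabasal keratin, was lower in Rescue, at 19.2, 20.3 and 11.8 CPM against 143, 104 and 82.5 CPM in PKP4-KO, and both groups were above the 5.15, 8.55 and 6.73 CPM of WT. The members that fell were Krt1, Sprr2a1, Calm5 and Stfa3.

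The letters of the AP-1 motif, TGANTCA, on which Jun and Fos family proteins act in many keratinocyte genes, were counted in the 250 bases before the start of each gene in the promoter table of RefSeq (GRCm38.p6). Of 43 cornified envelope names, 38 matched with 41 windows, of which 15 (36.6%) held the motif on either strand, against 6.75% of all 32851 windows. This is a description of letters and not of binding. Some members are near copies or neighbours of each other, so their windows are not independent. The windows of the called members with the largest log2 fold changes that hold it are shown, each read towards the gene, with the motif in capitals. That of Sprr2d covers chr3:92338890-92339139 on the forward strand, and that of Ivl chr3:92573736-92573985 on the reverse strand:
Sprr2d: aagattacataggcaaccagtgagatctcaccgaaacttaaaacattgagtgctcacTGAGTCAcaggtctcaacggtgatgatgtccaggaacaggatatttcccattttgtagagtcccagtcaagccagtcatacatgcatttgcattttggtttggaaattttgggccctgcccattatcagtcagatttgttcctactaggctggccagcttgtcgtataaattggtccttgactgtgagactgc
Ivl: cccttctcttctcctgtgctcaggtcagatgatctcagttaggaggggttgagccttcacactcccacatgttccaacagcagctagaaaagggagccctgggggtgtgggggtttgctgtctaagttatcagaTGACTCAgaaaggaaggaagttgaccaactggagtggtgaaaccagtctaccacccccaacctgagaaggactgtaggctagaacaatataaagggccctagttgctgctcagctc

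Of the genes of AP-1 and the immediate-early response, 8 of 16 tested members rose and 2 fell, with a median of 0.77. Fos was at 18.4, 19.3 and 13.4 CPM in Rescue, 4.01, 4.89 and 2.29 CPM in PKP4-KO and 19.3, 11.6 and 19.2 CPM in WT. Fosl1, or FRA1, rose by 1.79, and Egr3, a zinc finger factor, rose by 3.64 from 0.839, 0.669 and 0.222 CPM to 8.54, 8.67 and 5.57 CPM, above WT (2.68, 1.08 and 1.38 CPM).

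Stress keratins and keratins of simple epithelia were higher in Rescue. All 5 stress keratins, which skin makes on injury and in culture, rose, with a median of 1.14. Krt6b was at 6419, 6589.8 and 4232 CPM in Rescue, 1617, 1312 and 1205 CPM in PKP4-KO and 6519.6, 7261 and 5571 CPM in WT, and Krt16 rose by 1.14 and Krt75 by 3.37. Of 6 keratins of simple epithelia, 5 rose and none fell. Krt7 was at 229, 210.4 and 212 CPM in Rescue, 11.6, 12.2 and 8.5 CPM in PKP4-KO and 6.23, 6.25 and 7.9 CPM in WT, and Krt23 at 92.1, 104 and 54.1 CPM, 0.932, 0.879 and 0.886 CPM and 11.1, 9.84 and 8.66 CPM in the same order. For Krt7 and Krt23, as for Krt8 above, Rescue lay above both other groups, while for Krt6b, Krt16 and Krt75 Rescue overlapped WT. The median of the class was 5.43, or 4.43 with the 4 members with at most 3 counts per library in a group set to their bound.

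Krt8 and Krt20 are also markers of Merkel cells, the touch cells of the epidermis. Of 7 Merkel cell markers, 5 were tested, Krt8 and Krt20 rose, Isl1 fell and Atoh1, the factor that defines these cells, had no count. The summed level of the 7 was 30.6 to 38.1 CPM in Rescue, 27.3 to 38.3 CPM in PKP4-KO and 18.7 to 23.7 CPM in WT, of which Sox2 was the largest part in every library (21.1, 24.4 and 18.4 CPM in Rescue). The fall of Isl1, by 1.43, was lost without PKP4-KO replicate 2 and without Rescue replicate 1.

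Basal keratins and fate factors split evenly, with 7 higher and 7 lower members of 18 tested. Krt15, a keratin of basal and stem cells, was at 43.2, 38.1 and 33.1 CPM in Rescue and 824, 638 and 489 CPM in PKP4-KO, a 17-fold difference (log2 fold change -4.09, adjusted p = 1.24e-12, SE 0.28). The WT libraries, at 43, 46.6 and 36.2 CPM, overlapped Rescue. Trp63, the p63 factor that maintains the basal layer, fell by 0.97 (adjusted p = 0.00578), a call lost without PKP4-KO replicate 2 and without TMM factors. Grhl1, a factor of barrier formation, rose by 2.49, from 22.7, 22.7 and 11.6 CPM to 115, 122 and 85.2 CPM. Gata3 rose by 2.68 to 9.64, 8.78 and 8.2 CPM, above both other groups.

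The list of epithelial-mesenchymal transition, with 6 of 14 tested members higher and 3 lower, held Snai1 together with Prrx1 and Mir205hg among the falls. Prrx1, a mesenchymal homeobox factor, was at 0.0577, 0.264 and 0.0497 CPM in Rescue, 2.56, 3.18 and 3.4 CPM in PKP4-KO and 0 in WT. Mir205hg, the host of miR-205, fell by 3.08, although that microRNA is known for maintaining epithelial cells. The members that rose include both mesenchymal genes, such as Fn1 and Snai2, and epithelial ones, such as Epcam and Esrp2.

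Cell cycle and DNA replication genes were lower in Rescue: 26 of 31 members fell, none rose, and the median log2 fold change was -1.36. Their summed level was 2479 to 2613 CPM in Rescue, 5745 to 6598 CPM in PKP4-KO and 2989.8 to 3387 CPM in WT, so that all Rescue libraries were below all WT libraries too. E2f1, a factor that opens S phase, was at 14.4, 12.4 and 12.9 CPM in Rescue, 61.3, 70 and 87.5 CPM in PKP4-KO and 20.9, 30.5 and 26.4 CPM in WT. Its log2 fold change was -2.46 (adjusted p = 5.67e-11, SE 0.20). Mybl2 fell by 2.18 and Ccne2, cyclin E2, by 2.20. Neighbouring genes within 5 Mb were lower too, with medians of -0.85 around E2f1, -0.64 around Mybl2 and -0.50 around Ccne2. With these medians subtracted, the 3 genes were still called, with log2 fold changes of -1.61, -1.53 and -1.71.

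The falls reached the replication machinery. Mcm5 and Mcm7, subunits of the replicative helicase, each fell by 1.70, and Mcm5 was at 83.8, 83.5 and 77.7 CPM in Rescue, 281, 278 and 237 CPM in PKP4-KO and 108, 103 and 123 CPM in WT. Pcna, the sliding clamp, fell by 2.02 and Cdk1, the mitotic kinase, by 1.59. Mki67, the proliferation marker Ki-67, did not pass the test, with 13.2, 19.2 and 25.7 CPM in Rescue and 23.2, 28.3 and 21.4 CPM in PKP4-KO (log2 fold change -0.33, adjusted p = 0.529). Its libraries overlapped.

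An E2F-like motif, TTTNNCGC, was sought in the same way and found in 4 of 24 windows of 23 matched cell cycle genes (16.7%), against 4.28% of all windows. The windows of Mcm5, chr8:75109259-75109508 on the forward strand, and Mcm7, chr5:138171884-138172133 on the reverse strand, are the 2 called members with the largest fold changes that hold it. Capitals mark the motif on either strand, and in Mcm5 2 matches overlap:
Mcm5: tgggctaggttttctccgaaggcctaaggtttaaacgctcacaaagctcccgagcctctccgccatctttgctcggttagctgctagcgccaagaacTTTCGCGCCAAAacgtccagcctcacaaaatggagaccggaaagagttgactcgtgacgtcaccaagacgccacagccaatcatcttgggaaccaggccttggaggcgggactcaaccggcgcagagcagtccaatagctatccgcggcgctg
Mcm7: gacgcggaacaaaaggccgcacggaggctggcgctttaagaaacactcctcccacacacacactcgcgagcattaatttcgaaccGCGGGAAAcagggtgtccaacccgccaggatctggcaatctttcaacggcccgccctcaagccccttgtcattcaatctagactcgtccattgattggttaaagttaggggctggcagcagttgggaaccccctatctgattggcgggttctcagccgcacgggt

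Among p53 targets and inhibitors of the cell cycle, 11 of 20 rose and 4 fell, with a median of 0.52, and without TMM factors 9 members were called in place of 15. Gadd45a, a stress sensor, was at 49.5, 52.4 and 42.7 CPM in Rescue, 12.4, 11.8 and 10.7 CPM in PKP4-KO and 6.39, 8.12 and 6.07 CPM in WT. Cdkn2a, the gene of the inhibitors p16 and p19, rose by 1.72, with WT spread from 14.7 to 56.2 CPM. Sesn1, a p53 target, fell by 1.70.

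Growth factors of the EGF family were higher in Rescue. Of 14 tested EGF receptors, ligands and feedback genes, 11 rose and none fell, with a median of 1.04. Areg, or amphiregulin, was at 37.3, 43.2 and 37.2 CPM in Rescue, 3.36, 3.22 and 2.88 CPM in PKP4-KO and 10.9, 8.98 and 12 CPM in WT, and its log2 fold change was 3.63 (adjusted p = 5.76e-11, SE 0.30). Hbegf, another ligand, rose by 3.20 to 48.4, 62.4 and 44.6 CPM, and Btc, betacellulin, by 4.11. Rescue exceeded WT for Areg (by 1.88 on the log2 scale) and Hbegf (by 1.30).

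The list of YAP, TAZ and their targets had 10 higher members and 1 lower member of 19 tested, with a median of 0.78. YAP and TAZ are coactivators that answer to tension. The higher members included Wwtr1, which encodes TAZ itself, and the factors Tead1, Tead2 and Tead3, so the count is not one of targets alone. They did not include Ccn1 or Ankrd1. F3, or tissue factor, was at 27.4, 30.5 and 23.6 CPM in Rescue, 1.07, 1.8 and 1.4 CPM in PKP4-KO and 26.6, 29.3 and 26.2 CPM in WT, so that Rescue and WT overlapped. Ccn2, or CTGF, the target most often used as a readout, rose by 4.14, from 1.07, 0.92 and 0.96 CPM to 16, 18.2 and 18.1 CPM, and stayed far below the 144, 87.2 and 158 CPM of WT. The member that fell was Foxf2, by 2.48.

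Wnt, Notch and TGF-β or BMP genes changed in both directions. Wnt pathway genes had 5 higher and 7 lower members of 24 tested, among them Wnt7a, a ligand of epithelia, up by 2.31, Dkk3, a Dickkopf protein, up by 4.04, and the nuclear factor Tcf7, down by 1.85. For the Notch pathway the counts were 4 and 5 of 13, with the receptor Notch3 at 26, 28.1 and 22.5 CPM in Rescue, 3.4, 2.43 and 1.99 CPM in PKP4-KO and 24.9, 24.6 and 25 CPM in WT. Maml2, a Notch coactivator, rose by 2.23 and Lfng, a glycosyltransferase that tunes Notch receptors, fell by 1.89. TGF-β and BMP genes had 5 higher and 5 lower of 18 tested, with the receptors Tgfbr3 and Bmpr1b up by 3.21 and 3.26 and the inhibitor Smad6 among the lower members.

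Cytokines and chemokines were mostly higher in Rescue. Of 26 tested members, 16 rose and 3 fell, with a median of 1.39 (1.34 with bounds). Tslp, the alarmin that acts on dendritic cells, was at 97.1, 75.6 and 74.6 CPM in Rescue, 2.38, 2.26 and 3.47 CPM in PKP4-KO and 4.43, 3.74 and 2.85 CPM in WT. Its log2 fold change was 4.95 against PKP4-KO (adjusted p = 1.9e-11, SE 0.39) and 4.49 against WT (adjusted p = 4.64e-10), so that the Rescue libraries stood apart from both. Il1a, interleukin 1α, was at 74.1, 70.4 and 79.5 CPM in Rescue, 3.5, 5.02 and 3.69 CPM in PKP4-KO and 25.9, 21.6 and 20.8 CPM in WT. Il33 rose by 3.69 and Il34, a ligand of the CSF1 receptor, by 4.23.

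Immune cell markers gave 1 rise among 3 tested genes of 10 listed: Cd68, a lysosomal protein abundant in macrophages, was at 91.3, 97.7 and 99.7 CPM in Rescue, 8.3, 6.78 and 10.5 CPM in PKP4-KO and 23.4, 38.5 and 26.8 CPM in WT. The T cell and Langerhans cell markers Cd3e and Cd207 had no count, the 10 markers together stood at 97.6 to 103 CPM in Rescue and 10.9 to 14.6 CPM in PKP4-KO, mostly from Cd68, and their part in the cytokine values was not tested. Of interferon-stimulated genes, 3 of 16 tested rose and 3 fell. B2m, the light chain of MHC class I, was at 36.4, 29.3 and 43.6 CPM in Rescue, 107, 117 and 184 CPM in PKP4-KO and 15.6, 21.2 and 12 CPM in WT. B2m lies in a bin of 5 Mb of chromosome 2 where 40 of 57 tested genes were lower in Rescue, with a bin median of -1.48. The wider set of neighbours within 5 Mb on either side had a median of -0.42. With that smaller median subtracted, the log2 fold change of B2m went from -1.90 to -1.48 and was still called. The median of the bin itself was not subtracted, so how far B2m goes beyond its bin was not tested. The factor Irf1 fell by 1.89, and the peptide transporter Tap1 rose by 1.14.

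Melanocyte and endothelial markers were low. Melanocyte markers summed to 3.35 to 4.55 CPM in Rescue and 1.44 to 2.01 CPM in PKP4-KO, with Mlana (at least 4.45-fold) and Mitf higher among 3 tested, Mitf at 3.12, 3.33 and 2.48 CPM in Rescue, and Tyr at 0. Endothelial markers summed to 3.38 to 4.57 CPM and 3.45 to 5.24 CPM, with 1 of 3 tested, Kdr, at least 4.95-fold higher.

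Stress and metabolic genes gave further groups in which most, but not all, called members shared a direction. Of 20 genes of the integrated and ER stress responses, 13 rose and 1 fell, with a median of 0.61. Chac1, a glutathione-degrading enzyme under ATF4, was at 108, 103 and 82.3 CPM in Rescue, 13.4, 14.6 and 14.5 CPM in PKP4-KO and 23.3, 27.3 and 22.6 CPM in WT, and Ddit3, or CHOP, rose by 2.10 to 60, 76.5 and 44.3 CPM. Both were above WT, by 2.00 and 2.41 on the log2 scale. Xbp1, the factor of the unfolded protein response, rose by 1.67 to a level that overlapped WT (log2 fold change 0.37, adjusted p = 0.063).

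NRF2 antioxidant targets had 12 higher and 3 lower members of 20, with a median of 0.78. Gsta1, a glutathione transferase, was at 201, 193 and 151 CPM in Rescue, 22.1, 17.6 and 16 CPM in PKP4-KO and 113, 135 and 105 CPM in WT. Me1, the malic enzyme that makes NADPH, rose by 3.59. Aldh3a1, an aldehyde dehydrogenase, went the other way, with 2.25, 1.59 and 1.39 CPM in Rescue, 79.3, 74.8 and 77.3 CPM in PKP4-KO and 15.9, 17.6 and 16.3 CPM in WT (log2 fold change -5.47, adjusted p = 1.44e-14, SE 0.29). Here Rescue was the lowest of the 3 groups.

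Cholesterol and fatty acid synthesis had 12 higher and 1 lower of 26 members, with a median of 0.43. The member that fell was Scd1, the desaturase that makes oleic acid, at 1.96, 1.53 and 4.72 CPM in Rescue, 35.6, 47.2 and 45.2 CPM in PKP4-KO and 2.88, 2.37 and 0.204 CPM in WT. Mvd and Hsd17b7, enzymes of cholesterol synthesis, rose by 2.01 and 1.49. Glycolysis and hypoxia genes fell in 10 and rose in 4 of 24 tested members, with a median of -0.41. P4ha1, a collagen prolyl hydroxylase, fell by 2.38, and Ndrg1 and Egln3 rose by 2.29 and 1.82. Genes induced by hypoxia lay on both sides: Vegfa was also among the higher members, and Bnip3, Car12, Slc2a1, Pgk1 and Ldha were among the lower ones.

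Hox and Cdx genes, which mark where along the body a cell comes from, were lower in Rescue. Of 39 such genes, 27 were tested, 16 fell and 1, Hoxb8, rose, with a median of -2.23 (-1.97 with bounds). Hoxc5 was at 0.577, 0.0529 and 0.547 CPM in Rescue, 24.7, 24 and 28.1 CPM in PKP4-KO and 0.155, 0.144 and 0.204 CPM in WT. Cdx2, a factor of caudal and intestinal identity, was at 0.0577, 0.106 and 0.298 CPM in Rescue, 10.4, 10.7 and 12.8 CPM in PKP4-KO and 0.103, 0 and 0 CPM in WT. Hoxd9 was at least 33.7-fold lower in Rescue by the floor of 3 counts. Hoxa7 had 1.73, 1.59 and 1.44 CPM in Rescue and 16.5, 19.7 and 55.7 CPM in PKP4-KO, where replicate 3 was far above the others. For these 4 genes, the PKP4-KO libraries were high and both Rescue and WT low, and Rescue summed to 71.5 to 79 CPM over the list against 199 to 256 CPM in PKP4-KO and 42.2 to 48.8 CPM in WT. The rise of Hoxb8, by 0.99 (adjusted p = 0.0306), was lost without PKP4-KO replicate 1 or 3, without Rescue replicate 3 and with no filter on low counts.

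The difference between Rescue and PKP4-KO was then set beside the same difference at 24 h LCM, where junctions are not induced, and at 72 h HCM. At 24 h LCM, 2748 genes were higher (18.2%) and 2341 lower (15.5%) in Rescue. Of the 6160 genes called at 24 h HCM, 4211 were called in the same direction at 24 h LCM, 68.4% of these and 82.7% of the genes called in LCM, and 7 were called in opposite directions. The difference of the 2 differences was called for 213 genes (1.41%), 150 of them more positive in HCM and 63 more negative, and 1470 genes had an unadjusted p below 0.05. This count lay between 103 and 274 when 1 library was left out. It was 103 without Rescue replicate 2, 131 without Rescue replicate 1, 139 without PKP4-KO replicate 2 and 137 without PKP4-KO replicate 3 of 24 h HCM, and 121 without Rescue replicate 3 of 24 h LCM.

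The genes whose difference was larger in HCM included those of the envelope and of keratins. In the cornified envelope list, 8 of 39 tested members had a difference more positive in HCM than in LCM and none a more negative one. For Ivl the log2 fold change was 4.42 in HCM and 1.98 in LCM, a difference of 2.44 (adjusted p = 0.000803, SE 0.39). Krt75 rose by 3.37 in HCM and stood at -0.14 on the log2 scale in LCM (adjusted p = 0.844), with a difference of 3.51 (adjusted p = 0.000891). Areg, Cldn23, Krt23, Mvd and Chac1 also differed more in HCM, by 1.74, 3.04, 2.26, 1.11 and 1.09.

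At 72 h HCM, 5625 genes were higher (37.2%) and 4457 lower (29.5%) in Rescue. Of the 6160 genes called at 24 h, 3278 were called in the same direction at 72 h (53.2% of these and 32.5% of those called at 72 h) and 1080 in the opposite one. The difference between 24 h and 72 h was called for 47.2% of the tested genes, 3032 more positive and 4098 more negative at 24 h. The PKP4-KO libraries of 72 h HCM had TMM factors of 0.48 to 0.55, and without TMM factors the median log2 fold change of all genes at 72 h moved from 0.20 to 1.37, and the split of the 24 h to 72 h difference became 1044 to 8189. The genes named below as called in opposite directions at 24 h and 72 h are those whose difference kept its sign without TMM factors. Because they were selected in this way, the kept sign is no test of them. Keeping the sign does not extend to the genes that kept their direction, among them Aldh3a1.

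Some genes that rose at 24 h had a called fall at 72 h, and part of these falls depended on the TMM factors. Among stress keratins, all 5 rose at 24 h and 4 fell at 72 h, with 4 lower and 1 higher at 72 h without TMM factors. Krt6b changed by 2.06 at 24 h and -2.54 at 72 h, a difference of 4.60 (adjusted p = 5.43e-13, SE 0.28). In the cornified envelope list, the counts of higher and lower members were 30 and 4 at 24 h and 9 and 19 at 72 h, but 20 and 12 at 72 h without TMM factors. Tgm1 changed by 4.20 and -2.72, Tslp by 4.95 and -3.53, and Gsta1 by 3.29 and -2.15, and without TMM factors their values at 72 h were -1.54, -2.35 and -0.97.

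The junction lists, like all tested genes, had more higher than lower members at 72 h. The counts were 12 higher and 3 lower of 19 for adherens junctions, 11 and 5 of 20 for tight and gap junctions and 6 and 4 of 15 for desmosomes. Over all tested genes, 37.2% were higher and 29.5% lower, and the desmosome shares were near these. Without TMM factors the counts of these lists were 17 and 2, 18 and 1, and 11 and 1, in a fit where 9877 genes were higher and 1785 lower. Among the named members that fell at 72 h, Jup and Shroom3 had values of -1.72 and -1.95, and of -0.54 and -0.77 without TMM factors, still called as falls. Pkp1 and Nectin4 fell by 1.06 and 0.59 at 72 h with TMM factors, but without them Pkp1 stood at 0.12 and was not called, and Nectin4 was higher by 0.59.

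Other genes kept their direction at 72 h. Krt15 changed by -3.01, Timp3 by -5.26, Aldh3a1 by -6.16 and Hoxc5 by -4.73, all falls, and Dsg2 by 5.88, Vcan by 4.85, Col4a2 by 5.59 and Itgb7 by 5.38, all rises. Of the 31 cell cycle genes, 26 fell at 24 h and 8 fell and 11 rose at 72 h (0 and 27 without TMM factors), and for 30 the difference was more negative at 24 h than at 72 h. Mybl2 fell at both times, by 2.18 and 1.20, but at 72 h its value without TMM factors was -0.03 and was not called.

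**Figure D4:**
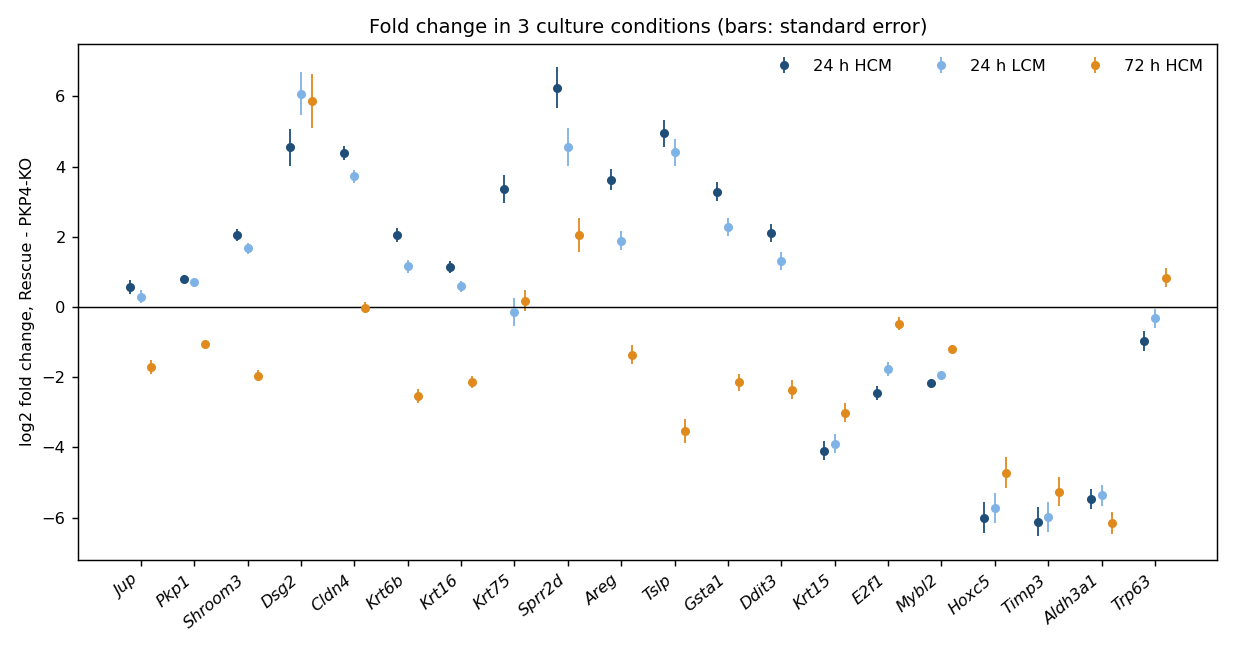
Log2 fold change of Rescue against PKP4-KO for 20 named genes at 24 h HCM, 24 h LCM and 72 h HCM; points are the estimates of the fit over 36 libraries and bars their standard errors. The 24 h points of both media lie on the same side of 0 for all genes but Krt75, and Jup, Pkp1, Shroom3, Krt6b, Krt16, Areg, Tslp, Gsta1, Ddit3 and Trp63 lie on the other side at 72 h with a called difference (Pkp1 only with TMM factors), while Cldn4 is at -0.02.

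Rescue was also set beside WT at 24 h HCM. In that comparison, 1785 genes were higher (11.8%) and 1718 lower (11.4%) in Rescue, and it shares the Rescue libraries with the main comparison. Against WT, 1 of 15 desmosome genes was higher and 2 were lower in Rescue, no adherens junction gene was higher and 3 of 19 were lower, and of 20 tight and gap junction genes 3 were higher and 7 lower. Cytokines were higher than WT in 16 of 26 and integrated stress genes in 14 of 20 tested members. Of 39 tested cornified envelope genes, 14 were higher than WT and 1 lower. Of 27 tested Hox and Cdx genes, 11 were higher than WT and 1 lower. Cell cycle genes were lower than WT in 14 of 31, and integrin and focal adhesion genes in 9 of 25.

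Neighbouring genes moved together in parts of the genome. Chromosome 4 had the lowest median log2 fold change of the autosomes, -0.22, and chromosome 19 the highest, 0.25. Of 432 bins of 5 Mb with at least 10 tested genes, 10 had a median beyond 1 in either direction, 6 above 1 and 4 below -1. Among those above was the bin of chromosome 3 from 90000001 to 95000000, the region of Sprr2d and Ivl. There, 50 of 104 tested genes were higher and 10 lower in Rescue, with a median of 1.05. The lowest bin, chosen after its values were seen, was that of chromosome 4 from 105000001 to 110000000 of GRCm39. In it, 42 of 54 tested genes were lower and 4 higher in Rescue, with a median of -2.02.

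In that lowest bin, the median level of the 54 genes was 12.9, 12.7 and 12.7 CPM in the Rescue libraries. It was 62.3, 70.8 and 53.4 CPM in PKP4-KO and 12.9, 10.7 and 12.5 CPM in WT. The PKP4-KO libraries were high and the others low and close together. The same bin had a median of -2.29 at 24 h LCM and of 0.00 for Rescue against WT.

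On chromosome 2, which carries Pkp4, the bin from 120000001 to 125000000 had a median of -1.48 and that from 60000001 to 65000000, next to Pkp4, a median of 1.32. Around Pkp4 itself, the 19 tested genes within 5 Mb had a median of 0.95. With such neighbour medians subtracted, Pkp4 was called lower in Rescue, with a log2 fold change of -1.26, and 6080 genes were called in all. Gene copy number was not measured here, and its part in these values was not tested.

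**Figure D5:**
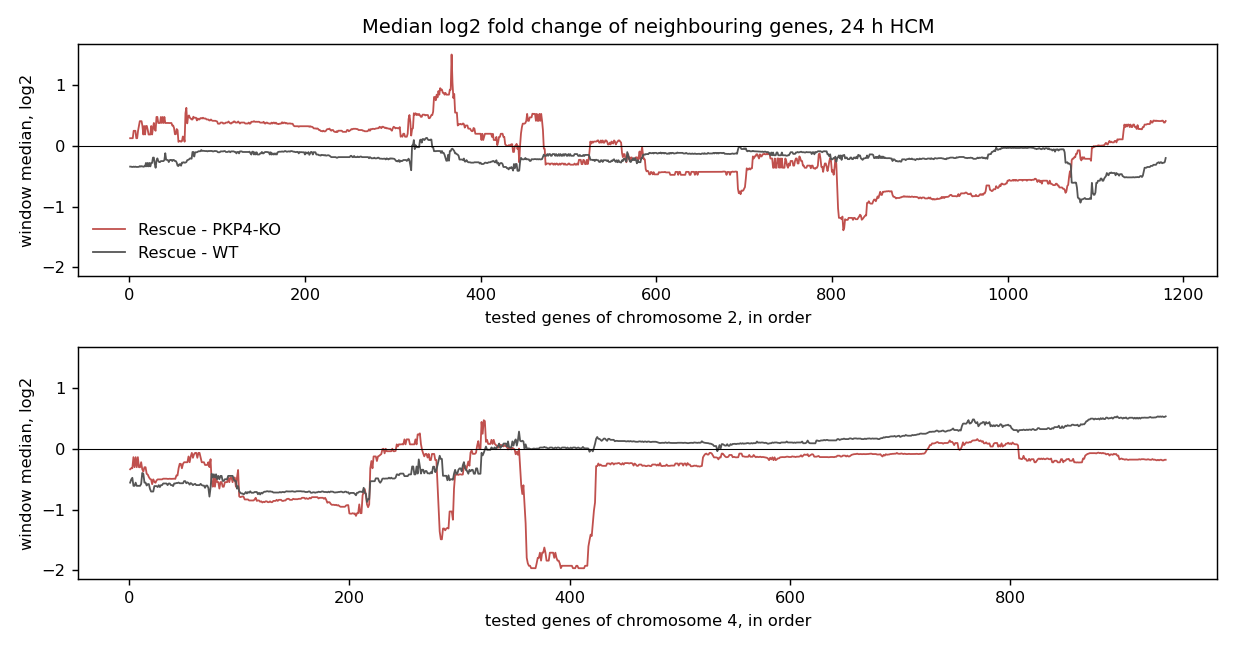
Median log2 fold change of the tested genes within 5 Mb of each gene, that gene left out, along chromosomes 2 and 4 in gene order at 24 h HCM; the red line is Rescue against PKP4-KO and the grey line Rescue against WT, which share the Rescue libraries. The red line of chromosome 4 falls to -1.96 over a run of genes where the grey line stays near 0.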

How the data were processed

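RNA was sequenced from 36 libraries in 12 groups of 3: WT, PKP4-KO and Rescue keratinocytes in LCM or HCM, of which the 24 h and 72 h groups are used here. The authors aligned reads with HISAT2 2.1.0 and deposited raw counts per gene made with featureCounts 2.0.0, with GFP-PKP4 added to the mm39 genome. Libraries were strand-specific. Whether the counting used strand is not given in the sources used here, so antisense genes cannot be told apart from their partners. Of the gene IDs, 98.9% matched the reference annotation (GRCm39). Groups came from the sample labels.

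Counts as deposited were tested with edgeR 4.0.16 (TMM factors, filterByExpr, quasi-likelihood F test) in R 4.3.3, with 1 mean for each of the 12 groups and contrasts between them. Genes with a Benjamini-Hochberg adjusted p below 0.05 were called. CPM were scaled with TMM factors. A group with at most 3 counts in each library was given a fold only as a bound against 3 counts. The code of the fit was run on simulated counts in which few genes changed. That run cannot show how the fit or the TMM factors behave under differences as wide as those found here. DESeq2 1.42.0, library sizes without TMM factors, other filters, only the groups compared, leaving out each library, a replicate block and subtraction of the median of genes within 5 Mb were alternatives.

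The main fit had no term for replicates, so its p-values are unpaired, and replicate numbers were used only in the block alternative. Deviations of the same-numbered Rescue and PKP4-KO libraries from their group means correlated at 0.118, 0.307 and 0.364, each over 0.1. Replicate 2 of Rescue and 1 of PKP4-KO correlated at 0.212, more than the 2 libraries numbered 1. Whether the numbers mark true pairs is thus uncertain. Counts of any 2 libraries of a group differed by more than sampling noise (chi-square per gene at least 7.03).

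The members, the 38 gene lists and the tests were chosen with earlier results of these data known. By rule, the named genes were Pkp4, GFP-PKP4, 13 genes central to the study, up to 3 called members of each list with the largest absolute log2 fold change and a mean of at least 1 CPM, and the 10 called protein-coding genes with the largest change in each direction. A further 25 list members and any other gene named with its list were chosen after their values were seen. Some genes and lists are not reported here.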

Additional observations from a re-analysis of the deposited data

Results flagged for a closer look

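Named genes are listed here when the difference between Rescue and PKP4-KO itself differed by the test of that difference (edgeR, adjusted p below 0.05), either between HCM and LCM at 24 h or, with calls in opposite directions at both times, between 24 h and 72 h HCM. All values are differences of log2 fold changes.

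Between the media at 24 h, the value of HCM minus LCM was, for the keratins and envelope genes, Krt75 3.51, Krt23 2.26, Ivl 2.44 and Asprv1 1.70. For the junction genes Cldn23 and Gja1 it was Cldn23 3.04 and Gja1 -0.69, and Gja1 is the one gene of these that was more negative in HCM. The other values were Rhou 0.87, Areg 1.74, Mvd 1.11, Ndrg1 0.98 and Chac1 1.09.

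Between the times in HCM, the value of 24 h minus 72 h was, for junction genes, Jup 2.29, Pkp1 1.86, Nectin4 2.96, Shroom3 4.00 and Cdh13 -1.53, and for the cytoskeletal genes Rhov 3.07 and Myh14 4.01. For stress keratins and transglutaminase 1 it was Krt6b 4.60, Krt16 3.27 and Tgm1 6.91. Among signals it was Areg 4.98, Tslp 8.48, Fos 3.01 and Il33 6.43, and among stress and metabolic genes Ndrg1 3.90, Egln3 2.48, Gsta1 5.43 and Ddit3 4.45. The transcription factors, lower in Rescue at 24 h and higher at 72 h, had Tcf7 -3.04 and Trp63 -1.80, as did Cdh13 in its direction. Of the 150 named genes that were tested, 98 had a called difference between the times, and these listed are the ones called in opposite directions whose difference kept its sign without TMM factors. The 72 h value itself had the opposite sign without TMM factors for Pkp1, Nectin4, Fos and Egln3, and was no longer called for Rhov, Myh14 and Areg.

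In groups of 3 libraries, single libraries were not tested for standing apart by the gap to the others. The 4 Y-linked RNAs, summed, were over 3 counts in all 12 Rescue libraries, 1 WT library and 0 PKP4-KO libraries, as given with the label checks, and the cause was not tested.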

How the results depend on the processing

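The number of genes called between Rescue and PKP4-KO at 24 h HCM, 6160, was 6507 with DESeq2, 5268 without TMM factors, 5406 without a filter, 4527 with at least 10 counts in every library, 5701 with only the groups compared and 6088 with a replicate block (3279 higher and 2809 lower), a change of less than 1.5 times in each. The block changed no call of a named gene. Leaving out 1 library gave 5281 to 5567 calls at 24 h HCM, 4066 to 4970 at 24 h LCM, 9355 to 9523 at 72 h HCM, 6107 to 7825 for the difference between the times, 2624 to 2998 against WT and 103 to 274 for the difference between the media. On log2(CPM + 0.5), it gave a difference of 5.47 to 6.70 for GFP-PKP4 and -0.33 to -0.22 for Pkp4.

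The count for the difference between the media, 213, moved most: it was 409 with DESeq2, 108 without TMM factors, 132 without a filter and 56 with only the groups compared. The share of more positive calls in it was 70.4%, 86.1% without TMM factors and 87.1% without a filter. Without TMM factors the share of higher calls was 84.7% in place of 55.8% at 72 h HCM (11662 called), 66.2% in place of 51.0% against WT (2835 called), and the share more positive at 24 h than at 72 h 11.3% in place of 42.5% (9233 called). In the lists, 9 p53 members were called without TMM factors in place of 15, and 0 fibroblast markers with DESeq2 in place of 2.

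Over all alternatives, 1846 of 1883 values of named genes kept direction and side of the threshold, 34 lost the call, 3 gained it and none reversed. These changes fell on 12 of 150 genes: Pkp4, Jup, Rhoa, Rock1, Pdxp, Trp63, Isl1, Col1a2, Col3a1, Gja1, Cdh13 and Hoxb8. At 72 h HCM, 29 genes were also looked at without TMM factors, chosen after seeing the data: Pkp1 then stood at 0.12, Nectin4 at 0.59, Fos at 0.33 and Egln3 at 0.52, all with the opposite sign, Rhov, Myh14, Areg and Mybl2 lost the call, and DESeq2 changed none. The cause was not tested. Genes with few counts are limited by depth, and 3 libraries a group limit every test.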
